A study of Mus musculus with 12 samples.

Results

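The 10 genes described here encode proteins of the sarcoplasmic reticulum (SR) calcium cycle in cardiac muscle, namely *Ryr2*, *Casq2*, *Casq1*, *Trdn*, *Asph*, *Jph2*, *Atp2a2*, *Pln*, *Sln* and *Slc8a1*. They were chosen by name for this function, with earlier results of these data known. All 10 were among the 54658 gene names counted, and all 10 passed the filter on low counts. RNA was measured in the left atrium (LA) of 6 control and 6 iNICD littermate mice, 1 library per LA. Controls (4 female, 2 male) carried αMHC-rtTA alone, a transactivator driven by a cardiomyocyte promoter, and iNICD mice (3 female, 3 male) carried αMHC-rtTA and tetO_NICD, which together express the Notch1 intracellular domain on doxycycline. The transgene is therefore driven in cardiomyocytes, while the RNA was taken from whole LA tissue. Both groups were 2 to 3 months old, of mixed genetic background, and received doxycycline chow for 3 weeks with no washout.

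In a cardiomyocyte, calcium entering during the action potential opens ryanodine receptors of the SR, and the released calcium drives contraction. The SERCA2 pump then returns calcium to the SR, where calsequestrin binds it, and the sodium-calcium exchanger carries the remainder out of the cell. Phospholamban and sarcolipin are small membrane proteins that inhibit the pump, and sarcolipin is a characteristic atrial transcript.

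Of the 10 genes, *Sln* (sarcolipin) fell in iNICD LA to 0.641 of the control level, and the other 9 did not pass the test. Thus 1 of 10 was lower and 0 of 10 were higher, against 1.34% and 2.78% of all 13541 tested genes (4.12% in either direction; adjusted p-value under 0.05, quasi-likelihood test of edgeR, Benjamini-Hochberg adjustment over all tested genes). At an unadjusted p-value under 0.05 there were 2 of 10, *Sln* and *Casq2*, against 17.4% of all tested genes. The median log2 fold change was -0.04 for the 10 genes and -0.01 for all tested genes. In none of the 10 genes were the iNICD libraries all above or all below the control libraries, an arrangement found in 3.83% of tested genes. Levels below are normalized CPM, that is, read counts taken relative to the library total after TMM scaling.

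The pump inhibitors are shown first, because *Sln* is the gene that changed and *Pln* (phospholamban) is the other inhibitor of the same pump. Their coding sequences, read from the GENCODE M21 transcripts, are given on the sense strand with the start and stop codons in capitals. *Sln* lies at chr9:53850164-53854560 on the plus strand of GRCm38 (mm10) and *Pln* at chr10:53337667-53345987, also on the plus strand.
Sln: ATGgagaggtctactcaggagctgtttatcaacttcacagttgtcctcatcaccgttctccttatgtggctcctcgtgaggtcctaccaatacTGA
Pln: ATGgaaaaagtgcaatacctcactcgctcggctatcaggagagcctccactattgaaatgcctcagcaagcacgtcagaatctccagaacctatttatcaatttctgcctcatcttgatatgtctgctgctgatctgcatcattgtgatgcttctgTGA
The *Sln* frame has 31 codons before the stop and the *Pln* frame 52. The *Sln* frame makes up 7.28% of its 1318-base transcript, so most reads counted for *Sln* can come from outside the frame. All 6 annotated coding transcripts of *Pln* hold the same frame.

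Normalized CPM of *Sln* had a lowest value of 1011, a median of 1421 and a highest value of 1531 in control libraries, and 761, 850 and 1072 in iNICD libraries. All 6 iNICD libraries were below the control median and 5 were below every control, and the groups overlapped only in that control replicate 5 (1011) was below iNICD replicate 6 (1072). The mean was 1348 ± 211 in controls and 864 ± 114 in iNICD (SD, n = 6 per group), which corresponds to -0.64 on the log2 scale (standard error 0.12, 95% interval -0.90 to -0.38) (edgeR adjusted p = 0.00803). The decrease passed the test in 23 of 24 alternative analyses, including each of the 12 that left out 1 library. The exception was the comparison of the 2 male controls with the 3 male iNICD libraries (log2 fold change -0.49, edgeR adjusted p = 0.774), in which 0.0601% of all tested genes were called. In RNA of whole tissue, fewer cells of a type and less RNA per cell cannot be told apart.

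Cell type markers were read beside this change. Of the 8 cardiomyocyte marker genes, *Tnnt2* and *Myl7*, which encode troponin T and the atrial myosin light chain, were lower in iNICD, and the other 6 did not pass. Log2 fold changes were -0.44 for *Tnnt2* (edgeR adjusted p = 0.0153) and -0.54 for *Myl7* (edgeR adjusted p = 0.0367). Those of the other 6 ran from -0.46 (*Actc1*) to 0.28 (*Tpm1*), with *Myh6* at -0.03. The summed level of the 8 markers was 65190 to 82954 normalized CPM in control and 56576 to 69090 in iNICD libraries. Control replicates 5 (82954) and 2 (72199) were highest, and the other 4 controls, at 65190 to 68226, overlapped the iNICD range. The part of these marker differences in the change of *Sln* was not tested. Of the 4 ventricular markers, *Irx4* was at 0 in every library, and *Myl2* and *Myl3*, myosin light chains, were at no more than 3.22 and 3.13 normalized CPM. *Myh7*, the slow myosin heavy chain, ranged from 17.8 to 2155 normalized CPM in control and from 13.1 to 2230 in iNICD libraries and made up nearly all of the summed ventricular level (21.2 to 2158 and 17.5 to 2231). Neither of the 2 ventricular markers that could be tested, *Myl3* and *Myh7*, passed.

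*Pln* had 381, 1162 and 1313 normalized CPM (lowest, median, highest) in control libraries and 682, 814 and 1004 in iNICD libraries. The controls fell into separate ranges, with 4 at 1149 to 1313, above every iNICD library, and control replicates 2 and 5 at 628 and 381, below every iNICD library. On the log2 scale *Pln* differed by -0.27 (standard error 0.25, 95% interval -0.82 to 0.27), which did not exceed the spread between replicates (edgeR adjusted p = 0.617). The interval includes decreases as large as that of *Sln*. Leaving out control replicate 5 gave -0.44 and leaving out control replicate 6 gave -0.17 (edgeR adjusted p = 0.160 and 0.748). *Pln* shares 1644 of its 2759 exonic bases with *Gm47644* and 141 with *Cep85l*, both on the opposite strand, which had at most 50 and 756 counts in a library against at least 8137 for *Pln*. The reads were stranded, but whether the counting used strand is not given in the sources used here.

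*Atp2a2* at chr5:122453513-122502225 (minus strand) encodes SERCA2, the pump on which both inhibitors act. Its level was 15717, 16965 and 17693 normalized CPM (lowest, median, highest) in control libraries and 14772, 16287 and 18014 in iNICD libraries. The iNICD range extended past the control range at both ends. The pump differed by -0.04 on the log2 scale (standard error 0.08, 95% interval -0.22 to 0.13, edgeR adjusted p = 0.822). *Atp2a2* ranked 5 among all gene names by mean normalized CPM of the control libraries and took up 1.67% of control and 1.65% of iNICD reads.

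**Figure D1:**
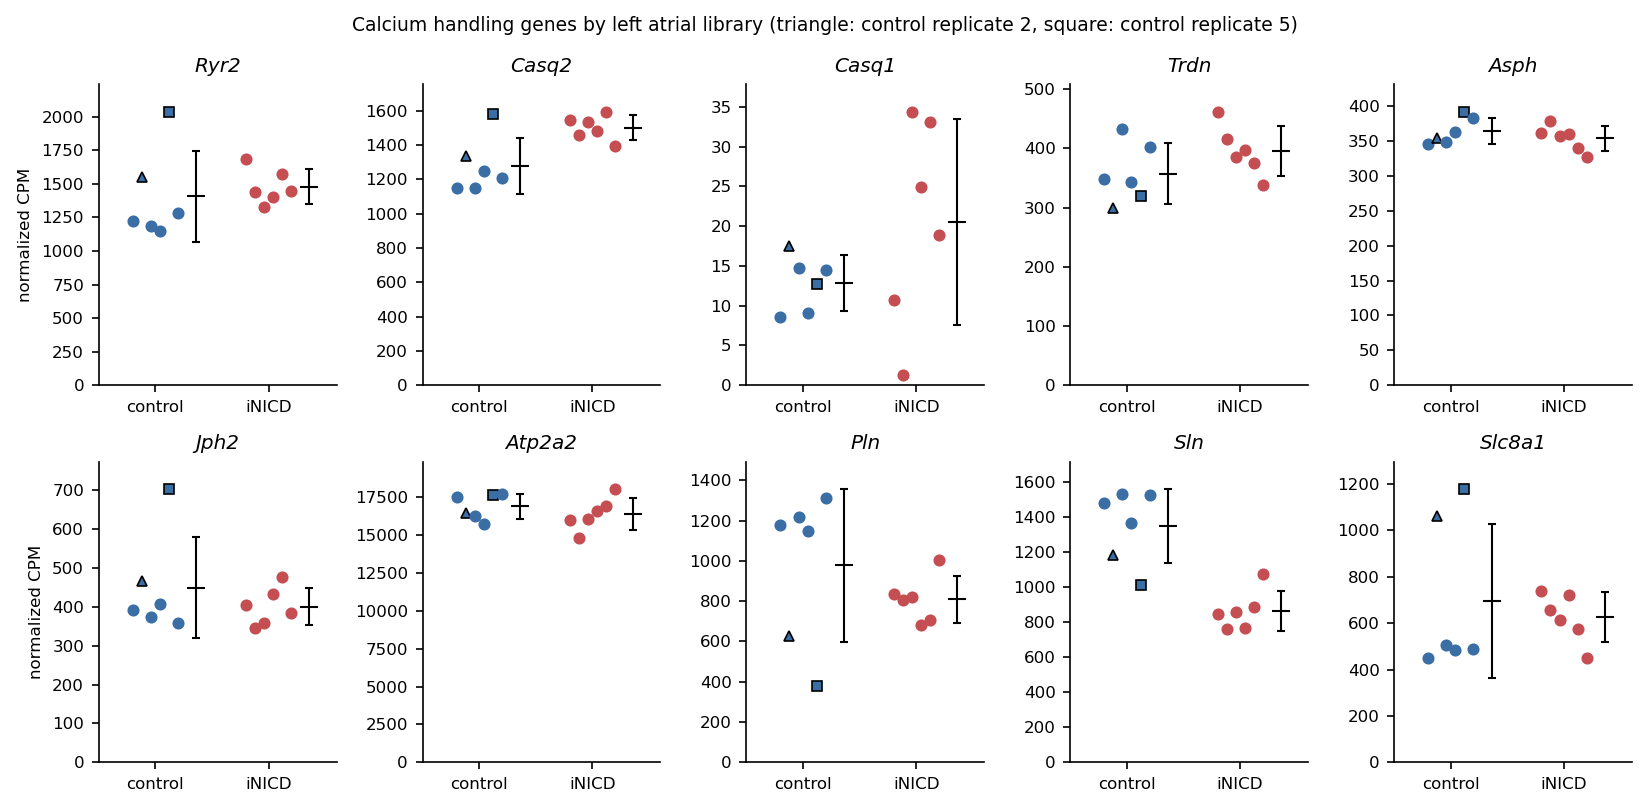
Normalized CPM of the 10 genes (vertical axes, linear from 0) in each control (blue) and iNICD (red) LA library, with the mean and SD of 6 libraries in black. *Sln* is lower in iNICD (864 against 1348), and control replicates 2 (triangle) and 5 (square) stand apart from the other controls in *Pln*, *Slc8a1* and *Ryr2*.

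Ratios of inhibitor to pump within each library do not depend on the scaling between libraries. They were computed as counts per base of gene length, and 4 ratios were compared by two-sided exact permutation of the libraries, for which the smallest possible p is 0.00216. The ratio of *Sln* to *Atp2a2* was 0.264, 0.394 and 0.436 (lowest, median, highest) in control libraries and 0.213, 0.243 and 0.275 in iNICD libraries. In 5 of 6 iNICD libraries it was below every control. The difference of mean log2 ratios was -0.59 (exact permutation p = 0.00433, 0.0173 after Benjamini-Hochberg adjustment over the 4 ratios, n = 6 per group). It passed with each of the 12 libraries left out, and did not pass after adjustment in females alone (exact permutation, adjusted p = 0.114), in males alone (0.4) or with the replicate number as a block (0.0625 by title and 0.125 by description). The smallest unadjusted p these designs allow is 0.0286 in females, 0.1 in males and 0.03125 with the block. The unadjusted p of this ratio was at that limit in females and with the block. The comparison in males could not pass at any values.

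The ratio of *Pln* to *Atp2a2* was 0.0476, 0.155 and 0.166 in control libraries and 0.0908, 0.114 and 0.123 in iNICD libraries. The groups overlapped, with control replicates 2 and 5 again lowest, and the difference of mean log2 ratios was -0.11 (exact permutation p = 0.786, adjusted 0.965, n = 6 per group). It ran from -0.37 without control replicate 5 (exact permutation p = 0.102, adjusted 0.136) to -0.014 without control replicate 3. The ratio of *Sln* to *Pln* was 2.43, 2.63 and 5.56 in control libraries and 1.98, 2.21 and 2.64 in iNICD libraries. Its difference of mean log2 ratios was -0.48 (exact permutation p = 0.0130, adjusted 0.0260, n = 6 per group). The adjusted p of *Sln* to *Pln* was over the threshold when iNICD replicate 1, 2, 3, 4 or 6 was left out, at 0.0649 to 0.0996 (exact permutation). It was also over the threshold in each sex alone and with the replicate block, where the limits on p given above apply. The 2 highest control values, 5.56 and 3.93, were those of control replicates 5 and 2, in which *Pln* was low.

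**Figure D2:**
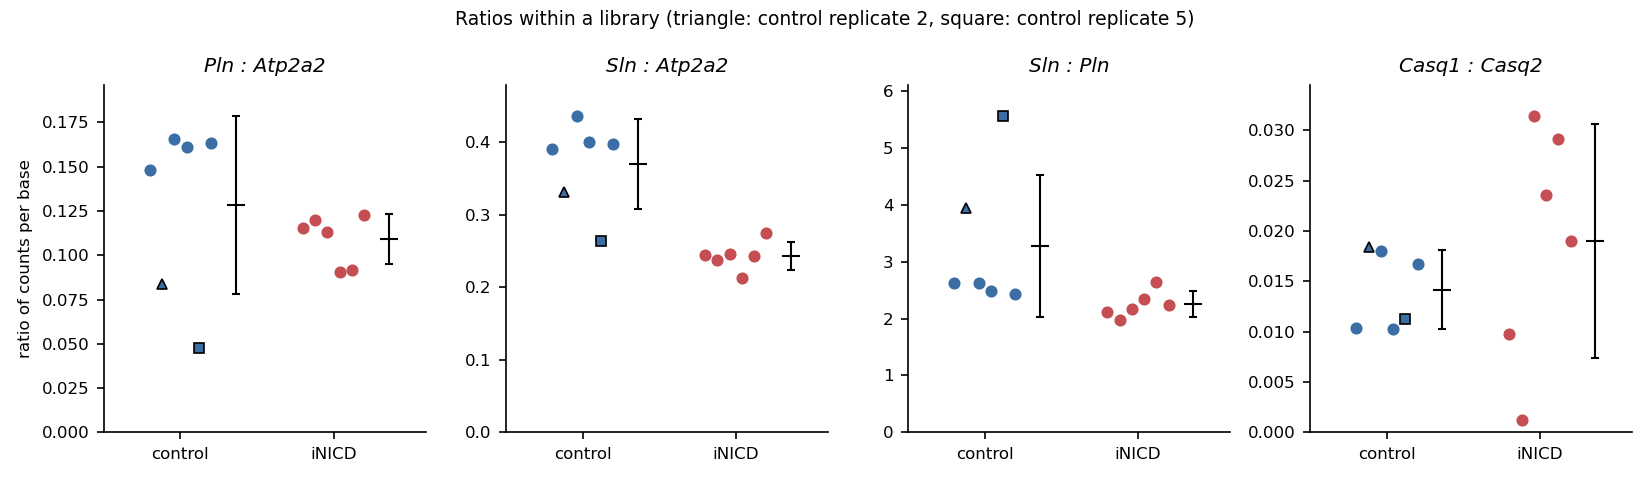
Ratios of counts per base of gene length within each LA library (vertical axes, linear from 0), with the mean and SD of 6 libraries in black. *Sln* to *Atp2a2* has a median of 0.394 in control (blue) and 0.243 in iNICD (red), and the controls marked by a square (replicate 5, 5.56) and a triangle (replicate 2, 3.93) have the highest values of *Sln* to *Pln*.

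The release channel and the luminal calcium binding proteins come next. *Ryr2* at chr13:11553102-12106945 (minus strand) encodes the cardiac ryanodine receptor. Its level was 1151, 1254 and 2038 normalized CPM (lowest, median, highest) in control libraries and 1329, 1443 and 1689 in iNICD libraries. All 6 iNICD libraries were above the control median and above 4 controls, while control replicate 5 (2038) was above all of them. On the log2 scale the difference of *Ryr2* was 0.07 (standard error 0.14, 95% interval -0.22 to 0.37, edgeR adjusted p = 0.821). It was 0.21 without control replicate 5 (edgeR adjusted p = 0.240) and 0.02 to 0.10 with any other library left out.

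*Casq2* at chr3:102086415-102146514 (plus strand) encodes cardiac calsequestrin, the main calcium buffer of the SR lumen. It had 1148, 1229 and 1581 normalized CPM in control libraries and 1395, 1509 and 1594 in iNICD libraries. All 6 iNICD libraries were above 5 of the 6 controls, and control replicate 5 (1581) was above 5 of the iNICD libraries. The difference of *Casq2* on the log2 scale was 0.23 (standard error 0.08, 95% interval 0.05 to 0.41), and it did not pass after adjustment over all tested genes (edgeR adjusted p = 0.165). Without control replicate 5 the log2 fold change was 0.30 and passed (edgeR adjusted p = 0.0139), as it did with libraries scaled to total counts alone (0.27, edgeR adjusted p = 0.0334).

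*Casq1* at chr1:172209894-172219868 (minus strand) encodes the calsequestrin best known from skeletal muscle and was the lowest of the 10 genes. It had 8.53, 13.6 and 17.5 normalized CPM in control libraries and 1.32, 21.9 and 34.4 in iNICD libraries. In iNICD, 4 libraries were above every control and iNICD replicate 2, with 30 counts, was below every control. For *Casq1* the log2 fold change was 0.68 (standard error 0.50, 95% interval -0.41 to 1.77, edgeR adjusted p = 0.519). It was 0.93 without iNICD replicate 2 (edgeR adjusted p = 0.119).

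The ratio of *Casq1* to *Casq2* was 0.0102, 0.0140 and 0.0184 (lowest, median, highest) in control libraries and 0.00127, 0.0213 and 0.0314 in iNICD libraries. In iNICD, 4 libraries were above every control and 2 were below every control. The mean ratio was higher in iNICD (0.0190 against 0.0142), whereas the difference of mean log2 ratios was -0.07 (exact permutation p = 0.965, adjusted 0.965, n = 6 per group). Without iNICD replicate 2 the difference of mean log2 ratios was 0.61 (exact permutation p = 0.119, adjusted 0.159). Over the 11 skeletal muscle marker genes, 5 were tested and 1 was called, *Tnni2*, the fast skeletal troponin I, which was higher in iNICD at 0.414 to 2.81 against 2.38 to 5.20 normalized CPM (edgeR adjusted p = 0.0312). The summed skeletal level was 649 to 949 in control and 325 to 893 in iNICD libraries, mostly *Ckm*, and its part in the spread of *Casq1* was not tested.

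The junctional proteins hold the release channel to calsequestrin or the SR to the cell membrane. *Trdn* at chr10:33080554-33476709 (plus strand) encodes triadin, which links the release channel to calsequestrin. It had 299, 346 and 434 normalized CPM (lowest, median, highest) in control libraries and 338, 391 and 462 in iNICD libraries. The ranges overlapped, with 5 of 6 iNICD libraries above the control median. Its difference on the log2 scale was 0.15 (95% interval -0.07 to 0.36, edgeR adjusted p = 0.484).

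*Asph* at chr4:9448069-9669344 (minus strand) encodes both junctin, a partner of triadin, and aspartate beta-hydroxylase from one locus, and a count per gene does not separate them. It had 346, 358 and 392 normalized CPM in control libraries and 327, 359 and 379 in iNICD libraries. The medians were nearly equal and the spread was small, with a coefficient of variation of 5.18% in control and 5.16% in iNICD. *Asph* differed by -0.04 on the log2 scale (95% interval -0.16 to 0.08, edgeR adjusted p = 0.744). *Asph* shares 2302 of 16102 exonic bases with *Clvs1* on the opposite strand, which had at most 566 counts in a library.

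*Jph2* at chr2:163336242-163397993 (minus strand) encodes junctophilin 2, which ties the SR to the transverse tubules and the cell surface. It had 358, 398 and 702 normalized CPM in control libraries and 346, 394 and 476 in iNICD libraries. Control replicate 5 (702) lay above all other libraries, and the other 5 controls at 358 to 465 lay within the iNICD range. With all libraries the log2 fold change of *Jph2* was -0.17 (95% interval -0.50 to 0.17, edgeR adjusted p = 0.618), and without control replicate 5 it was 0.0022 (edgeR adjusted p = 0.995).

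*Slc8a1* at chr17:81373105-81738377 (minus strand) encodes NCX1, the cardiac sodium-calcium exchanger. It had 449, 496 and 1177 normalized CPM (lowest, median, highest) in control libraries and 452, 636 and 740 in iNICD libraries. Control replicates 2 and 5, at 1060 and 1177, were above every iNICD library, whereas the other 4 controls were at 449 to 504 and 5 of 6 iNICD libraries were above those 4. Over all 12 libraries the log2 fold change of *Slc8a1* was -0.15 (standard error 0.26, 95% interval -0.70 to 0.41, edgeR adjusted p = 0.812). Its sign turned to 0.0033 without control replicate 2 and to 0.07 without control replicate 5, with edgeR adjusted p = 0.996 and 0.913.

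**Figure D3:**
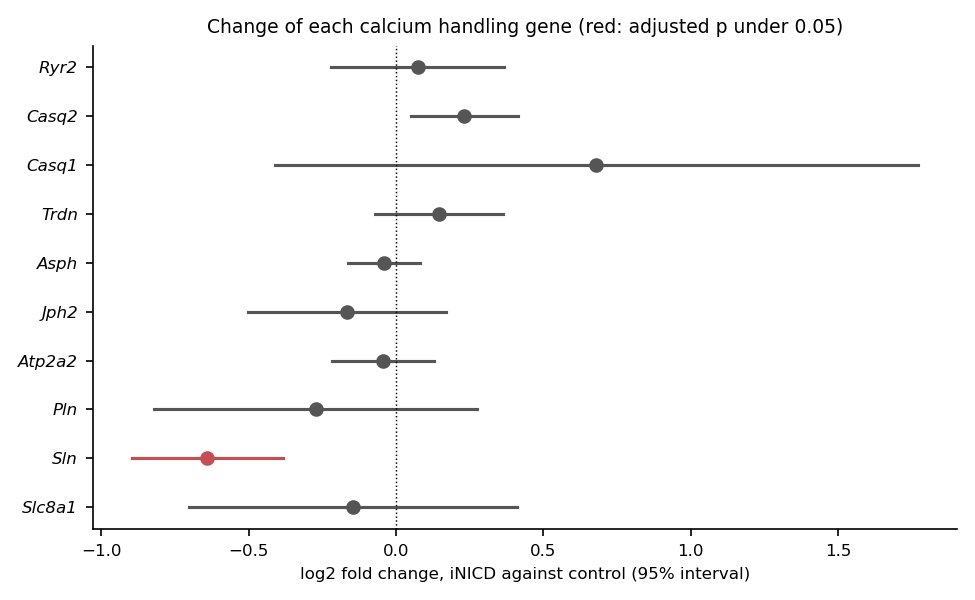
Log2 fold change of iNICD against control (horizontal axis) for each gene, with the 95% interval from the quasi-likelihood test of edgeR. *Sln*, in red, has the interval -0.90 to -0.38 and the only adjusted p-value under 0.05, and the interval of *Casq2*, 0.05 to 0.41, also lies above 0 before adjustment.

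Control replicates 2 (female) and 5 (male) shared a pattern across these genes. Against the mean of the other 4 controls, *Slc8a1* was 2.20-fold and 2.45-fold, *Ryr2* 1.28-fold and 1.68-fold, and *Jph2* 1.22-fold and 1.84-fold. In the same libraries *Pln* was 0.517-fold and 0.314-fold and *Sln* 0.801-fold and 0.686-fold. *Atp2a2* was 0.982-fold and 1.05-fold and *Asph* 0.982-fold and 1.09-fold, so the pump and the junctin locus were near the level of the other controls. The summed level of 4 smooth muscle markers, *Myh11*, *Acta2*, *Tagln* and *Cnn1*, was 247 and 393 normalized CPM in these libraries, 65.2 to 98.9 in the other 4 controls and 68.6 to 237 in iNICD libraries. *Cnn1* had the widest range of the 4, at 4.14 to 236 in control and 13.9 to 133 in iNICD libraries. Control replicates 2 and 5 were also the highest controls in the 8 cardiomyocyte markers (72199 and 82954 against 65190 to 68226). The same held for the 6 endothelial markers (889 and 946 against 746 to 813). In the other marker lists these libraries were not both above or both below the other controls. On the first principal component of all tested genes without the 10 described here (32.7% of the variance) control replicate 5 was at -77.4 and control replicate 2 at -20.2, against -5.13 to 7.96 for the other controls and 3.89 to 22.7 for iNICD libraries. The part of these differences in the comparisons was not tested, and both libraries were kept.

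The 12 libraries held between 21432632 and 27182038 counts on genes. *Notch1*, whose count also takes in the transgene, had 2335 to 3311 counts in control and 71187 to 107667 in iNICD libraries. Counts of *Xist* separated the 7 libraries labelled female from the 5 labelled male. Mitochondrial genes took 7.52% to 9.59% of control and 9.60% to 11.2% of iNICD counts, and with them removed the log2 fold change of *Sln* was again -0.64 (edgeR adjusted p = 0.00748).

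Levels were also compared between the genes per length, as normalized CPM per kilobase of exon. The order was the same in both groups. *Atp2a2* was highest (mean 2774 in control and 2692 in iNICD), followed by *Sln* (1022 and 656), *Casq2* (467 and 549) and *Pln* (354 and 293). *Jph2* (106 and 94.0), *Ryr2* (48.9 and 51.4), *Trdn* (38.2 and 42.3), *Slc8a1* (36.9 and 33.3), *Asph* (22.6 and 22.0) and *Casq1* (6.58 and 10.5) came after. In controls the library ranges of *Sln* and *Casq2* did not overlap (767 to 1161 against 420 to 578), whereas in iNICD they met (577 to 813 against 510 to 583). The ranges of *Ryr2* and *Trdn*, and of *Trdn* and *Slc8a1*, overlapped in both groups, so these neighbours were not separated by their spread. Those of *Slc8a1* and *Asph*, *Casq2* and *Pln*, and *Pln* and *Jph2* overlapped in control but not in iNICD libraries, and *Atp2a2* and *Sln*, *Jph2* and *Ryr2*, and *Asph* and *Casq1* did not overlap in either group.

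**Figure D4:**
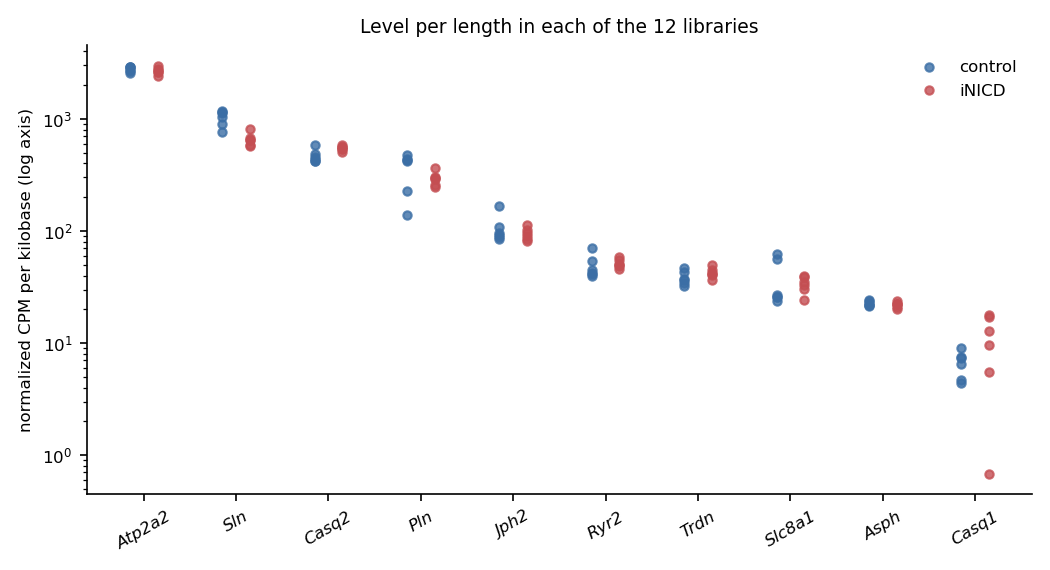
Normalized CPM per kilobase (vertical axis, log scale) of the 10 genes in each control (blue) and iNICD (red) library, 1 point per library. *Atp2a2* is highest at a mean of 2774 in control, *Casq1* lowest at 6.58, and the iNICD points of *Sln* reach down to those of *Casq2*.

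Profiles most like that of *Sln* were found by the root mean square difference of log2 normalized CPM over the 12 libraries, each gene centred on its own mean. The nearest were *Gng2*, a G protein gamma subunit, at 0.111, *Podn*, the extracellular matrix protein podocan, at 0.127, and *Adi1*, an enzyme of methionine salvage, at 0.127; the median over all tested genes was 0.432. *Podn* was lower in iNICD by a log2 fold change of -0.61 and *Gng2* by -0.56 (edgeR adjusted p = 0.00469 and 0.0327), and *Adi1* had -0.54 and did not pass (edgeR adjusted p = 0.0858). These genes were chosen for their likeness to *Sln*, so their direction was fixed by that choice.

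The effect of iNICD on these genes was set side by side in the sexes. *Sln* was 1180 to 1531 normalized CPM in female controls and 761 to 855 in female iNICD libraries, and 1011 and 1522 in the male controls against 766 to 1072 in male iNICD libraries. The female groups did not overlap and the male groups did. The difference in log2 fold change between males and females was 0.28 with a standard error of 0.25 for *Sln* and did not pass for any of the 10 genes (0 of 13541 genes passed in the interaction test of edgeR, with a lowest adjusted p of 0.916, and 501 had an unadjusted p under 0.05). DESeq2 called 1 gene of 13530 in the same interaction, none of the 10, with a lowest adjusted p among the 10 of 0.786. *Asph* was the member with an unadjusted p under 0.05, with a difference of -0.23 (edgeR adjusted p = 0.916). With 2 male controls, 1 of which is control replicate 5, differences between the sexes were measured with little precision.

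The wider calcium cycle was described with 47 other genes, of which 40 passed the filter on low counts. Of these 40, 1 was higher in iNICD and 0 were lower (edgeR adjusted p-value under 0.05), against the 2.78% and 1.34% of all tested genes given above, and 9 of 40 had an unadjusted p-value under 0.05, against 17.4% of all tested genes. Their median log2 fold change was 0.06. DESeq2 called 3 of the 40 higher and 1 lower, and of all tested genes 4.54% higher and 3.28% lower.

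The gene that rose was *Slc8a2* at chr7:16129826-16161063 (plus strand), which encodes NCX2, an exchanger of the same family as *Slc8a1* that is best known from brain. Its level was 1.82, 2.24 and 2.81 normalized CPM (lowest, median, highest) in control libraries and 4.98, 6.24 and 8.82 in iNICD libraries. All 6 iNICD libraries were above all 6 controls, on 40 to 69 counts in control and 113 to 215 in iNICD. The increase was 1.56 on the log2 scale (standard error 0.17, 95% interval 1.18 to 1.94, edgeR adjusted p = 1.82e-04), and it passed in 23 of 24 alternatives, the exception being male libraries only. Its level per base stayed below that of *Slc8a1* in every library, with a ratio of 0.00569 to 0.0224 in control and 0.0271 to 0.0698 in iNICD libraries. This ratio was chosen after the values were seen and was not tested.

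By role, 0 of 14 tested genes of release channels and their partners passed, 0 of 4 luminal and counterion genes, 0 of 4 genes of dyad structure, 0 of 7 uptake pumps and regulators, 1 of 6 genes of extrusion and exchange, and 0 of 5 genes of store operated entry. Log2 fold changes of the 40 genes ran from -0.66 to 1.56. Genes named here after their values were seen are *Slc8a3*, the third exchanger of the family, at 1.56 with a standard error of 0.43 on 9 to 40 control and 29 to 198 iNICD counts (edgeR adjusted p = 0.0653), and *Camk2g*, a calmodulin-dependent kinase subunit, at 0.26 (edgeR adjusted p = 0.0549). *Slc8a3* passed in 4 of 24 alternatives, DESeq2 and the exact test of edgeR among them, and *Camk2g* in 6 of 24, DESeq2 among them. Also named after its values were seen is *Orai3*, a gene of store operated entry, at -0.32 (edgeR adjusted p = 0.0983). *Orai3* passed as lower in 2 of 24 alternatives, DESeq2 and the fit without control replicate 5. The 7 genes that were too low to test were *Ryr1*, *Jph3*, *Jph4*, *Strit1*, *Mrln*, *Erln* and *Atp2b3*, among them the skeletal muscle ryanodine receptor and 3 micropeptides that act on SERCA pumps.

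**Figure D5:**
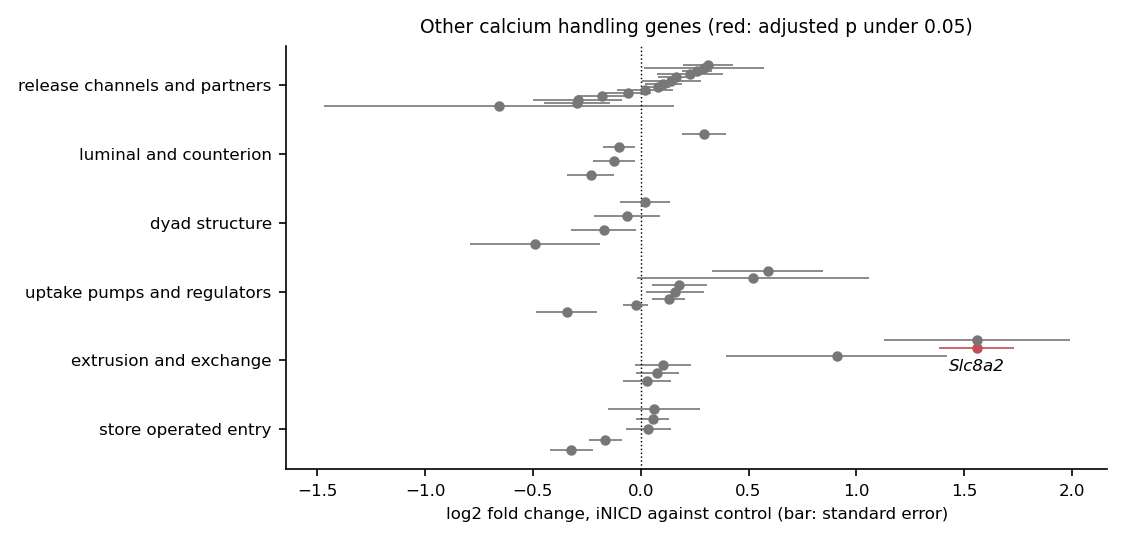
Log2 fold change of iNICD against control (horizontal axis) with its standard error for 40 other calcium handling genes, grouped by role on the vertical axis. *Slc8a2*, in red at 1.56, has the only adjusted p-value under 0.05, and the grey point above it with the wider bar is *Slc8a3*, also at 1.56.

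The promoters of the 2 exchangers are shown because 1 of the pair rose and the other did not pass. They are from RefSeq (GRCm38.p6), on the gene's own strand and ending 1 base before the start that RefSeq gives, with capitals marking TGGGAA, the core recognised by the Notch partner RBPJ. The *Slc8a1* window is at chr17:81738388-81738637 (minus strand), set from a RefSeq start that lies outside the GENCODE gene end given above, and that of *Slc8a2* at chr7:16129576-16129825 (plus strand).
Slc8a1: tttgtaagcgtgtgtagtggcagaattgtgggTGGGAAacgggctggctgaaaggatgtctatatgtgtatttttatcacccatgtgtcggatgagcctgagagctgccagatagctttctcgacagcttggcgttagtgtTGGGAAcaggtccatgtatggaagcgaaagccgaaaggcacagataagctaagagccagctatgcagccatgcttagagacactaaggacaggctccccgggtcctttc
Slc8a2: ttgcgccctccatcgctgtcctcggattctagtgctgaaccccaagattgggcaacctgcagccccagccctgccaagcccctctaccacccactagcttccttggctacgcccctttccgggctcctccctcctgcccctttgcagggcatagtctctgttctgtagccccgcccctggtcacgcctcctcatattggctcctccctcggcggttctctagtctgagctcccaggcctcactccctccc
RefSeq entries matched 6 of the 10 genes, with 7 promoters in all. TGGGAA, searched on both strands, was found in 1 of these 7, that of *Slc8a1*, starting 218 and 109 bases before the RefSeq start, and in 21.6% of all 32851 promoter windows of this length. It was not found in the *Slc8a2* window. CACGTG, the E-box, was found in 6.0% of all windows and AGGTGT, the T-box core, in 11.8%, and in 0 of the 7. These matches are a description of letters and not of binding.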

How the data were processed

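LA RNA was depleted of ribosomal RNA and sequenced as single-end reads. The authors deposited raw counts per gene name, without normalization, and a gene length in bases as a unit of its own (equal to the exon union of GENCODE M21 for 10 of 10 genes). Per the labels' processing notes, STAR 2.4.2a and featureCounts were used on mm10. The study's methods describe TopHat2 with HTSeq for the LA. For the comparison with the right atrium (RA) they describe another STAR version, Subread and an earlier GENCODE release. The deposited counts do not name their counter. Groups, replicate numbers and sexes were taken from titles, genotypes and descriptions. Replicate numbers are those of the titles, and control replicates 4 (female) and 5 (male) carry the numbers 5 and 4 in the descriptions. The 13541 genes above 1 CPM in 6 or more libraries were normalized by TMM and compared by the quasi-likelihood test of edgeR 4.0.16 (R 4.3.3), two-sided, at an adjusted p of 0.05. DESeq2 1.42.0, the exact test of edgeR, other normalizations and filters, sex, a replicate block, mitochondrial genes removed, each sex alone and each library left out were alternatives. The 10 genes and all lists were chosen with earlier results of these data known. All 10 genes are named, with up to 5 called genes of the wider list in each direction and the 3 genes most like a called member. No pair of libraries in a group were copies (lowest chi-square per gene 16.7). Low counts limit the precision of *Slc8a2*, *Slc8a3* and, in iNICD replicate 2, *Casq1*. *Strit1*, *Arln* and *Erln* were found under older names. RA libraries were not analysed here.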

Additional observations from a re-analysis of the deposited data

Results flagged for a closer look

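*Jph2* in control replicate 5 was at 702 normalized CPM, against 358 to 465 in the other 5 controls, a gap to the nearest control that took up 0.690 of the range of the group. It was the single value set apart in this way among 28 groups of 6 libraries tested (10 genes and 4 ratios in each group), where chance sets apart about 1 in 20, or 1.4 of 28. The log2 fold change of *Jph2* was -0.17 with this library and 0.0022 without it, and did not pass the test in either (edgeR adjusted p = 0.618 and 0.995).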

How the results depend on the processing

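The decrease of *Sln* kept its direction in all 24 alternatives (log2 fold change -0.76 to -0.49) and its call in 23. Counts of called genes moved as follows. Of the 10 genes, 1 was higher (*Casq2*) with total counts without TMM and 0 to 1 when 1 library was left out, and 0 were lower in male libraries only. Of the 40 other genes, 3 were higher with DESeq2, 3 with total counts, 2 with the exact test of edgeR, 2 with sex as a covariate, 0 in male libraries only and 1 to 3 when 1 library was left out, with 3 without control replicate 5, control replicate 6 or iNICD replicate 2; 1 was lower with DESeq2 and 0 to 1 when 1 library was left out (1 without control replicate 5). Log2 fold changes that turned sign, none of them called, were those of *Ryr2* in males (-0.19), *Slc8a1* in females (0.11), *Asph* in females (0.055), *Slc8a1* with 1 library left out (-0.24 to 0.067) and *Jph2* with 1 library left out (-0.23 to 0.0022). The cause was not tested. The share of all tested genes that was called moved as well, from 4.12% to 7.82% with DESeq2, 5.69% with the exact test, 4.96% with sex as a covariate, 3.64% with total counts, 0.0601% in males only, and 5.9%, 4.05% and 3.13% without control replicate 5, control replicate 6 and iNICD replicate 2.

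Of the ratios, *Sln* to *Atp2a2* had a difference of mean log2 ratios of -0.67 in females and -0.42 in males, and *Sln* to *Pln* of -0.46 in females and -0.61 in males, with exact adjusted p = 0.114 in females and 0.4 in males for both; the smallest unadjusted p these designs allow is 0.0286 and 0.1. *Sln* to *Pln* was -0.55 to -0.31 when 1 library was left out. *Pln* to *Atp2a2* was 0.19 in males, and *Casq1* to *Casq2* was 0.78 in males, -0.91 in females (exact adjusted p = 0.4 and 0.543) and -0.32 to 0.61 when 1 library was left out.

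Libraries with the same title number deviated together with a correlation of -0.15 to 0.37, over 0.1 in 4 of 6 pairs, and 2 of 6 iNICD libraries correlated best with the control of their number, so the rule for pairing (every pair over 0.1) was not met; this does not show that the numbers carry no pairing. With the replicate block 468 genes were called (421 by description number), *Sln* and *Slc8a2* among them. The ratios tested over sign flips of the pairs (smallest p 0.03125) kept their values, -0.59 for *Sln* to *Atp2a2* and -0.48 for *Sln* to *Pln*, and did not pass after adjustment under either numbering (exact adjusted p = 0.0625 and 0.125 for both).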
